A study of Homo sapiens with 6 samples.

Results

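The genes described here handle zinc in LNCaP, a cell line from a human prostate cancer that responds to androgen: the zinc transporter families SLC30A and SLC39A, the metallothioneins MT1 and MT2A, and the metal-responsive transcription factor MTF1. They were chosen by gene symbol and not by a cut on their values, though earlier results of these data were known. They number 34 of the 19571 genes in the expression table: 10 SLC30A genes, 13 SLC39A genes, 10 metallothionein genes or pseudogenes, and MTF1. RNA came from 3 libraries of cells stably carrying Flag-KDM4B (replicates 1, 2 and 4), a Flag-tagged histone lysine demethylase, and from 3 libraries of cells stably carrying the plenti6 control plasmid (replicates 1, 2 and 3), called vector libraries here. All cells were kept for 3 days before harvest in RPMI medium with 10% CFBS, an abbreviation the labels do not spell out. The titles of the Flag-KDM4B libraries share a suffix that no vector title carries, and the labels do not explain it. Whatever it marks cannot be told apart from the group. The labels also do not say how many clones a stable line came from or whether replicates came from separate cultures. The p-values therefore measure only how these libraries vary, which may be technical.

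Zinc does not cross membranes by itself. SLC39A proteins, also called ZIP transporters, bring it into the cytosol from outside the cell or from organelles, and SLC30A proteins, also called ZnT transporters, move it out of the cytosol. Metallothioneins are short cysteine-rich proteins that bind zinc and other metals in the cytosol, and MTF1 senses free zinc and switches on metallothionein genes and SLC30A1 through metal response elements in their promoters. Normal prostate epithelium accumulates zinc to an unusual degree, and prostate tumours are known to hold less of it.

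Facts of the whole series set how the values can be read. KDM4B itself measured 26.3, 27.2 and 25.8 FPKM (fragments per kilobase of transcript, scaled to the size of the library) in the KDM4B-labelled libraries, against 24.7, 25.15 and 25.3 FPKM in the vector libraries. The groups did not overlap, but the difference missed the threshold as deposited (log2 fold change 0.07, limma adjusted p = 0.113). On the scale of the bulk of genes, described next, KDM4B passed (0.31, limma adjusted p = 1.93e-05), as it did by event reads (0.35, edgeR adjusted p = 0.000434). Ribosomal RNA genes took 8.14% to 10.5% of the FPKM sum in the KDM4B-labelled libraries, against 0.144% to 0.473% in the vector libraries, with vector replicate 1 the highest of its group. The fit was repeated with these genes taken out and libraries brought to equal FPKM sums, as given in the last section. Any other part of this difference in the results below was not tested. All 10 luminal prostate markers were detected, summing to 1708 to 1781 FPKM in the KDM4B-labelled libraries and 4421 to 4615 FPKM in the vector libraries. Markers of basal, stromal, immune and endothelial cells summed to at most 3.21 FPKM per list and library. The expression table held only 1 of 3 basal markers (KRT14), 4 of 5 stromal and 2 of 3 endothelial markers, so the basal sum rests on 1 gene. Of 12148 genes with a mean of at least 1 FPKM, 13.4% were called higher and 60.3% lower in the KDM4B-labelled libraries, with a median log2 fold change of -0.22. When each library was divided by its median of ratios, a scale set by the bulk of genes, the median was 0.00, with 34.1% called higher and 33.9% lower. Results below are as deposited unless called scaled. Fold changes are of FPKM + 1, which understates the change of low genes.

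Of the 34 genes, 23 passed the filter on low values and were tested. As deposited, 3 rose (MT1X, SLC39A8 and SLC30A4), 17 fell, and MT2A, SLC39A9 and MT1DP did not pass the test. Scaled, 5 rose and 13 fell, and 5 did not pass. In either direction 73.7% of all tested genes were called as deposited and 68% scaled. The median log2 fold change over the 23 genes was -0.38 as deposited and -0.15 scaled, against -0.22 and 0.00 over all tested genes. The 17 falls as deposited stand beside 60.3% of all tested genes called lower, and the 13 falls scaled beside 33.9%. Separate groups in unscaled FPKM were seen for 19 of the 23 genes, 3 with the KDM4B-labelled libraries above and 16 below. Over all tested genes 14.6% lay above and 61.7% below without overlap.

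**Figure D1:**
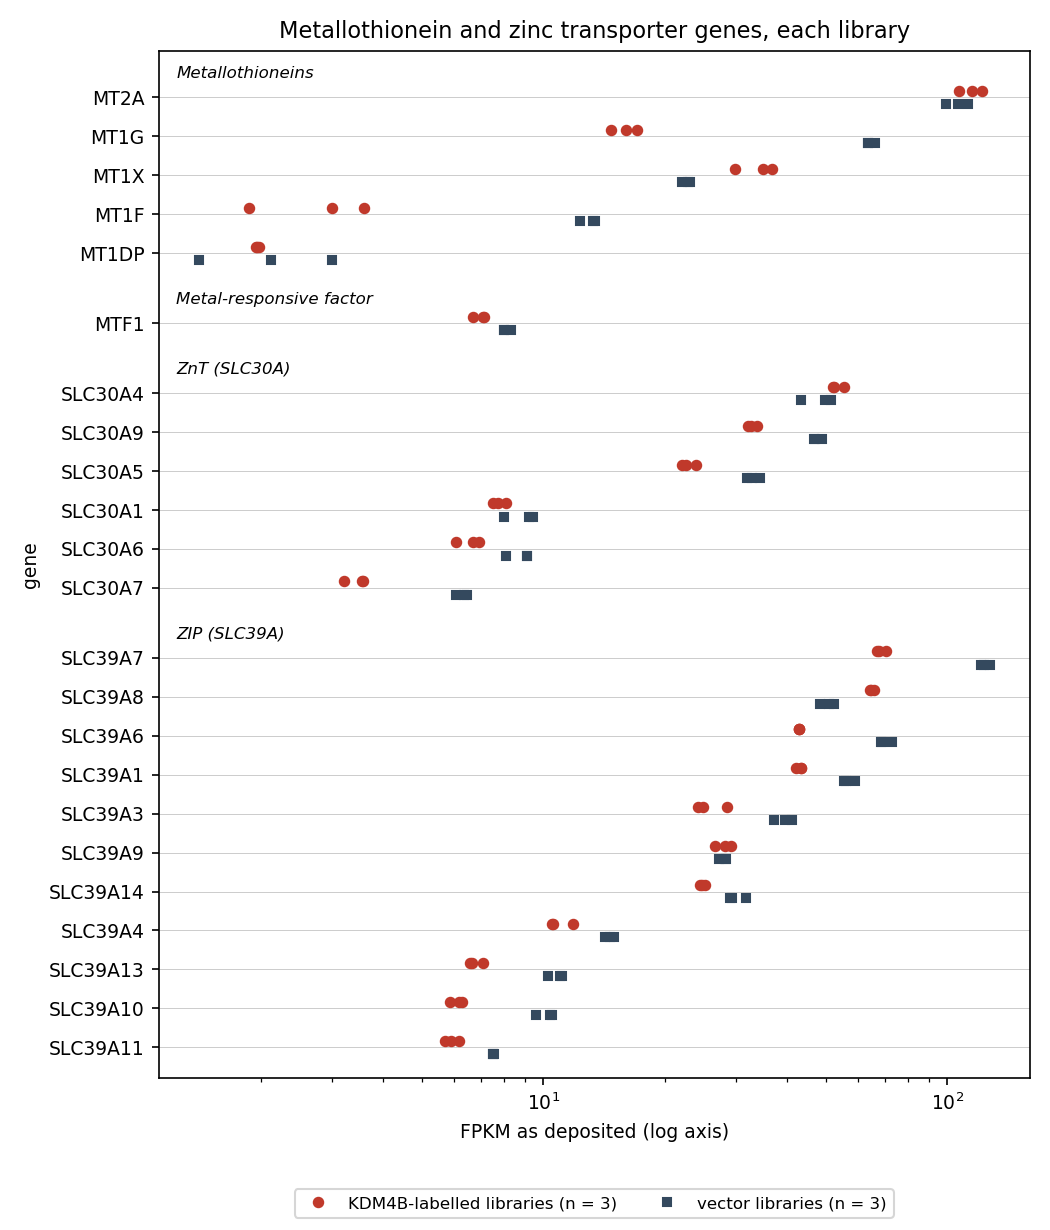
FPKM as deposited (x axis, log scale) of the 23 tested genes (rows) in each library, circles for the 3 KDM4B-labelled libraries and squares for the 3 vector libraries. MT1G and MT1F are far lower in the KDM4B-labelled libraries, while MT1X and SLC39A8 are higher without overlap of the groups.

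The metallothioneins went in opposite directions. MT1G and MT1F, neighbours in the metallothionein cluster of chromosome 16, fell to 0.247 and 0.217 of their vector means, while MT1X rose and MT2A did not pass the test as deposited. Metallothionein paralogs are near-identical over much of their length, so reads may have been split between copies and the level of each copy is uncertain.

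MT1G (gene 4495) measured 15.98, 17.1 and 14.7 FPKM in the KDM4B-labelled libraries, against 63.7, 63.6 and 66.2 FPKM in the vector libraries. Every KDM4B-labelled library lay below every vector library, and the ratio of the group means was 0.247. The log2 fold change was -1.96 (SE 0.052) as deposited and -1.72 (SE 0.046) scaled (limma, adjusted p = 9.51e-11 and 1.04e-09).

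MT1F (4494) measured 1.87, 3.00 and 3.60 FPKM in the KDM4B-labelled libraries, against 13.4, 12.3 and 13.3 FPKM in the vector libraries. The groups did not overlap, and the spread among the KDM4B-labelled libraries was wide for their low level, at 2.82 ± 0.878 FPKM against 13.0 ± 0.624 FPKM in the vector libraries (n = 3 each, ± SD). The log2 fold change was -1.9 (SE 0.13) as deposited and -1.70 (SE 0.14) scaled (limma, adjusted p = 1.6e-07 and 1.82e-06).

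MT1X (4501) measured 35.1, 36.7 and 29.7 FPKM in the KDM4B-labelled libraries, against 23.1, 22.1 and 22.8 FPKM in the vector libraries. All KDM4B-labelled libraries lay above all vector libraries, with replicate 4 the lowest of the 3. The log2 fold change was 0.55 (SE 0.066) as deposited and 0.79 (SE 0.063) scaled (limma, adjusted p = 1.39e-05 and 1.76e-06).

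MT2A (4502), which had the highest FPKM of the whole set in the KDM4B-labelled libraries, measured 107, 122 and 115 FPKM in the KDM4B-labelled libraries, against 106, 99.3 and 113 FPKM in the vector libraries. The groups overlapped as deposited and the difference did not pass the test (log2 fold change 0.11, SE 0.055, limma adjusted p = 0.0897). Scaled, the groups no longer overlapped and MT2A was called higher (log2 fold change 0.35, SE 0.049, adjusted p = 9.82e-05). The call as deposited turned on single libraries: MT2A passed without KDM4B replicate 1 (0.16, adjusted p = 0.0242) or without vector replicate 3 (0.15, adjusted p = 0.0371). It stood at 0.07 without KDM4B replicate 2 (adjusted p = 0.291) and at 0.06 without vector replicate 2 (adjusted p = 0.334).

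MT1DP, a transcribed pseudogene of the cluster, measured 1.97, 1.95 and 1.94 FPKM in the KDM4B-labelled libraries, against 3.00, 2.11 and 1.40 FPKM in the vector libraries. The vector libraries spanned the values of the KDM4B-labelled libraries, and the difference did not pass the test (log2 fold change -0.07, limma adjusted p = 0.665). Scaled it stood at 0.09 (adjusted p = 0.588). Single vector libraries set its direction: the value was -0.26 without vector replicate 3 (adjusted p = 0.048) and 0.11 without vector replicate 1 (adjusted p = 0.36). The other 5 cluster members were close to absent. MT1A, MT1B and MT1L were listed at 0 in all libraries but vector replicate 3, where they stood at 0.20, 0.12 and 0.11 FPKM. MT1JP was listed above 0 only in KDM4B replicate 1, at 0.11 FPKM, and MT1IP did not exceed 0.12 FPKM in any library. MT1E, MT1M and MT1H are not among the 34 genes and were not analysed here, so the sums and shares below do not include them.

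**Figure D2:**
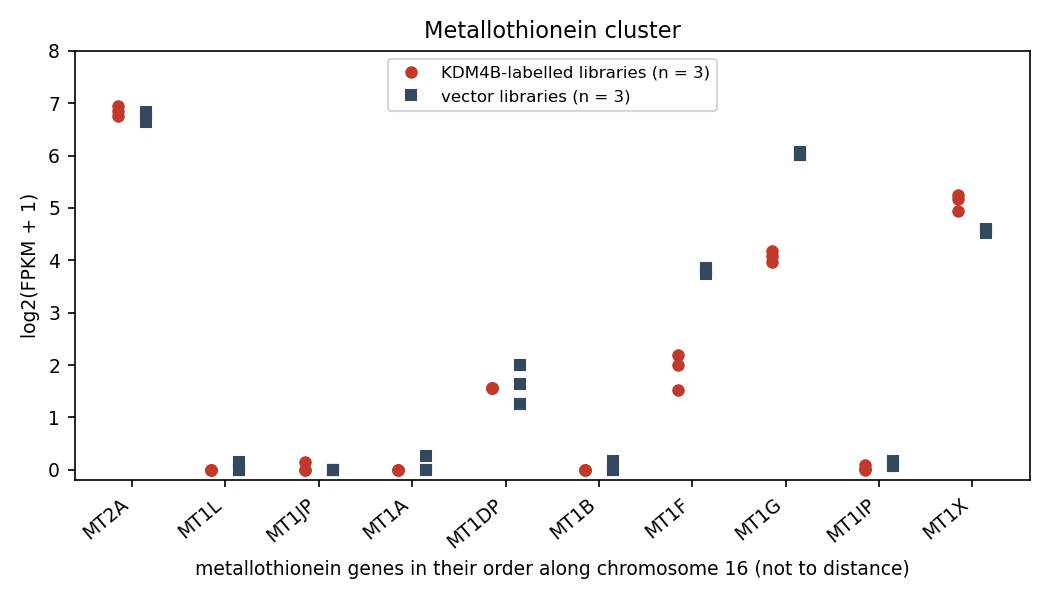
log2(FPKM + 1) of the 10 metallothionein genes and pseudogenes (x axis, in their order along chromosome 16, not to distance), circles for the 3 KDM4B-labelled libraries and squares for the 3 vector libraries. The neighbours MT1F and MT1G are lower in the KDM4B-labelled libraries, MT1X at the end of the cluster is higher, and the MT2A points overlap.

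Ratios within a library do not depend on its scale. MT1G stood at 0.456, 0.464 and 0.493 of the MT1X level in the KDM4B-labelled libraries, against 2.76, 2.88 and 2.90 in the vector libraries, so the order of these paralogs was turned round. Relative to MT2A, MT1G stood at 0.139 ± 0.011 in the KDM4B-labelled libraries, against 0.609 ± 0.0277 in the vector libraries, and MT1X at 0.296 ± 0.0351 against 0.214 ± 0.0102 (SD, n = 3 each). These ratios show unequal change among the paralogs, not which of them stayed the same.

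All 10 metallothionein rows together summed to 162, 181 and 165 FPKM in the KDM4B-labelled libraries, against 210, 199 and 217 FPKM in the vector libraries. The groups did not overlap, and no test was run on the sum. Scaled, the sums were 184 ± 6.95 FPKM in the KDM4B-labelled libraries and 191 ± 8.02 FPKM in the vector libraries (n = 3 each, ± SD), which overlapped. The make-up of the sum differed more than its size. MT2A held 67.7% ± 1.87 of it in the KDM4B-labelled libraries, against 50.8% ± 1.08 in the vector libraries. MT1X held 20% ± 1.83 against 10.9% ± 0.296, MT1G 9.41% ± 0.489 against 30.9% ± 0.827, and MT1F 1.67% ± 0.514 against 6.24% ± 0.149. A level in bulk RNA does not tell fewer expressing cells from less RNA per cell.

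**Figure D3:**
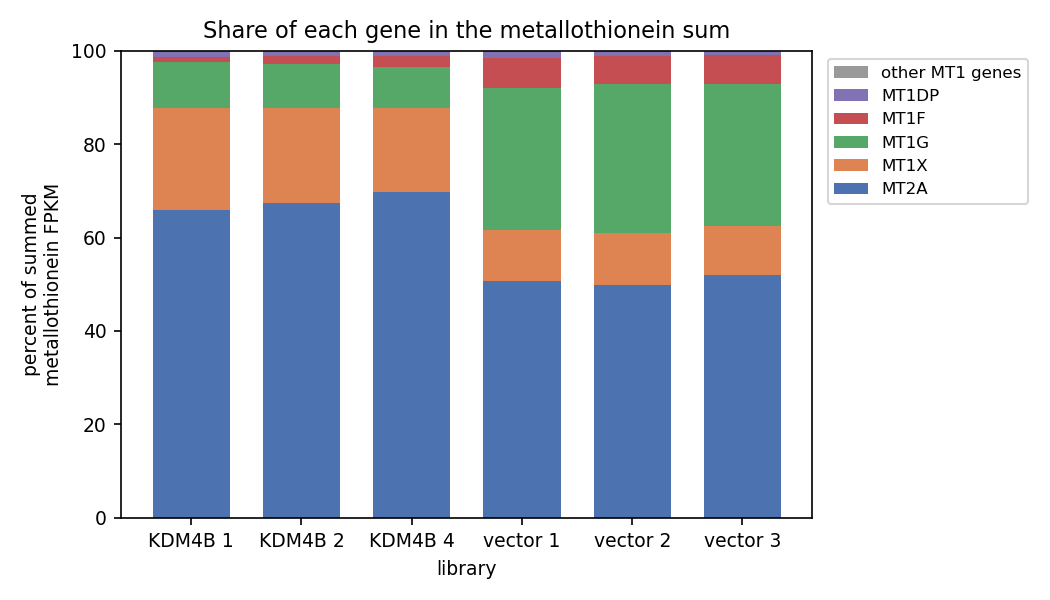
Share of each gene in the summed metallothionein FPKM (y axis, percent) of each library (x axis), the 3 KDM4B-labelled libraries left of the 3 vector libraries. MT1G holds 8.90% to 9.87% in the KDM4B-labelled libraries and 30.4% to 31.9% in the vector libraries.

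Read counts of splicing events gave a second readout of the same libraries. Each event count joins both splice forms, so the most-read skipped exon event of a gene serves as a count of its reads. The MT1G event had 118, 152 and 117 reads in the KDM4B-labelled libraries, against 428, 473 and 504 reads in the vector libraries (log2 fold change -1.64, edgeR quasi-likelihood test with TMM scaling, adjusted p = 1.49e-16). The MT1X event had 442, 506 and 377 reads in the KDM4B-labelled libraries, against 303, 267 and 291 reads in the vector libraries (0.84, adjusted p = 8.4e-10). Here too MT1G was low and MT1X high in every KDM4B-labelled library. The MT2A event had 1065, 1206 and 1038 reads in the KDM4B-labelled libraries, against 1034, 951 and 988 reads in the vector libraries (0.37, adjusted p = 2.42e-06), and these groups did not overlap. TMM scaling puts these fold changes on the scale of the bulk of genes, so they compare with the scaled FPKM values. MT1F had no such event.

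The metal response element, the site that MTF1 binds, has a core that can be spelled TGCACNC or TGCGCNC, where N is any base. Promoters of the rising MT1X, of MT2A and of SLC30A1, a textbook MTF1 target, are shown because this element links MTF1 to them, with every match to the core on either strand in capitals. Each sequence holds the 250 bases before the start of the gene, 5′ to 3′ on the gene's strand, from RefSeq on GRCh38.p14.
MT2A (chr16:56608334-56608583, plus strand): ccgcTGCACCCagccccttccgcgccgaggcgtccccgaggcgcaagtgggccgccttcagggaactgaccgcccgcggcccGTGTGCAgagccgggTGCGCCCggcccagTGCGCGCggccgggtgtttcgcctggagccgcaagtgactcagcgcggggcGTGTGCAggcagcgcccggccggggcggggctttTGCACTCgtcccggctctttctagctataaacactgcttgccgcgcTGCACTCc
MT1X (chr16:56682220-56682469, plus strand): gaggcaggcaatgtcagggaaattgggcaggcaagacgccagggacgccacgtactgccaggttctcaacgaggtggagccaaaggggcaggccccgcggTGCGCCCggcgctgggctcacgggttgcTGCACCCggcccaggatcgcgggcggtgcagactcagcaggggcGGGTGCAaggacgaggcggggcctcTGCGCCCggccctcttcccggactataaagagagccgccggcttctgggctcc
SLC30A1 (chr1:211579162-211579411, minus strand): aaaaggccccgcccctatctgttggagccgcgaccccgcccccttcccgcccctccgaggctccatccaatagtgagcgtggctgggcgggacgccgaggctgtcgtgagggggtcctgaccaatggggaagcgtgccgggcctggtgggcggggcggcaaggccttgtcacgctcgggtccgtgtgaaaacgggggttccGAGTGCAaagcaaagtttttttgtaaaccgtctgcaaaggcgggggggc
MT2A holds 7 matches, MT1X 4 and SLC30A1 1, and none of these matches overlap. Over all 35116 promoters of this length, 24.8% hold at least 1 match, 0.208% at least 4 and 0.0228% at least 7. The match nearest to the start lies 2 bases before it in MT2A (last base at -2), at -47 in MT1X and at -43 in SLC30A1. Promoters of MT1G and MT1F were not used here. Of the 34 genes, 24 had a promoter in the table, and 14 of their 33 listed promoters held at least 1 match. A match describes letters and not binding.

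MTF1 (4520) itself measured 7.11, 7.08 and 6.68 FPKM in the KDM4B-labelled libraries, against 7.99, 8 and 8.29 FPKM in the vector libraries. The groups did not overlap as deposited, and MTF1 was called lower (log2 fold change -0.19, SE 0.048, limma adjusted p = 0.00352). Scaled, the difference was 0.02 (SE 0.046, adjusted p = 0.678) with overlapping groups, so the fall as deposited was of the size of the shift of all genes. Its event reads overlapped as well, at 109, 128 and 97 in the KDM4B-labelled libraries and 104, 119 and 138 in the vector libraries (edgeR, log2 fold change 0.10, adjusted p = 0.633).

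Among the ZnT transporters 6 of 10 were tested. As deposited, SLC30A4 rose and 5 fell. Scaled, SLC30A4 rose, SLC30A5, SLC30A6, SLC30A7 and SLC30A9 fell, and SLC30A1 did not pass. These counts stand beside 13.4% higher and 60.3% lower of all tested genes as deposited, and 34.1% and 33.9% scaled. Their summed level was 128 ± 3.59 FPKM in the KDM4B-labelled libraries and 153 ± 6.15 FPKM in the vector libraries (n = 3 each, ± SD). Scaled, the sums overlapped, at 139 ± 1.45 FPKM in the KDM4B-labelled libraries and 141 ± 5.46 FPKM in the vector libraries.

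SLC30A4 (7782), which moves zinc into endosomes and other vesicles, had the highest FPKM of the ZnT genes in the KDM4B-labelled libraries, while its vector level was close to that of SLC30A9. It measured 52.0, 55.4 and 52.5 FPKM in the KDM4B-labelled libraries, against 43.4, 49.9 and 51.6 FPKM in the vector libraries. The groups came close without overlap, and vector replicate 1 was the lowest library. The log2 fold change was 0.14 (SE 0.059, limma adjusted p = 0.0455) as deposited, and the call was lost without KDM4B replicate 1, 2 or 4 or without vector replicate 1 (adjusted p = 0.0605, 0.127, 0.0549 and 0.196). The fold change was 0.16, 0.12 and 0.15 without each KDM4B replicate in that order, and 0.07 without vector replicate 1. Scaled it was 0.38 (SE 0.055, adjusted p = 0.000138).

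SLC30A7, SLC30A5 and SLC30A6 load zinc into the early secretory pathway, where the SLC30A5 and SLC30A6 proteins work as a pair. SLC30A7 measured 3.21, 3.58 and 3.56 FPKM in the KDM4B-labelled libraries, against 6.35, 6.07 and 6.47 FPKM in the vector libraries. This was the largest ZnT fall among the tested genes, without overlap, at -0.71 (SE 0.057) as deposited and -0.51 (SE 0.053) scaled (limma, adjusted p = 5.39e-07 and 1.23e-05). SLC30A5 measured 22.1, 23.8 and 22.6 FPKM in the KDM4B-labelled libraries, against 32.8, 32.0 and 34.4 FPKM in the vector libraries. Its groups did not overlap, and its log2 fold change was -0.52 as deposited and -0.28 scaled (limma, adjusted p = 1.05e-06 and 9.07e-05). SLC30A6, its partner, was the lower of the pair.

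SLC30A6 measured 6.06, 6.91 and 6.70 FPKM in the KDM4B-labelled libraries, against 9.10, 8.09 and 9.09 FPKM in the vector libraries (log2 fold change -0.37, and -0.15 scaled, limma adjusted p = 0.000203 and 0.0357). It fell on both scales, but its event reads overlapped between the groups, and the edgeR test on them did not pass (adjusted p = 0.442). SLC30A9, which carries zinc out of mitochondria, measured 32.1, 32.7 and 33.7 FPKM in the KDM4B-labelled libraries, against 46.8, 47.0 and 48.8 FPKM in the vector libraries. Its groups lay well apart, with log2 fold changes of -0.52 and, scaled, -0.28 (limma, adjusted p = 2.96e-07 and 5.74e-05).

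SLC30A1 (7779), the exporter at the plasma membrane, measured 7.5, 7.72 and 8.06 FPKM in the KDM4B-labelled libraries, against 9.41, 7.98 and 9.23 FPKM in the vector libraries. The groups overlapped, since vector replicate 2 lay below KDM4B replicate 4. It was called lower as deposited (-0.17, SE 0.062, limma adjusted p = 0.0265), and the value was 0.05 scaled (adjusted p = 0.507). As deposited it no longer passed without KDM4B replicate 1 or 2 (adjusted p = 0.0867 and 0.0538) or without vector replicate 1 or 3 (0.103 and 0.0955).

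The remaining 4 ZnT genes were under the filter. SLC30A3, which fills synaptic vesicles with zinc in neurons, measured 1.08, 1.04 and 0.96 FPKM in the KDM4B-labelled libraries, against 0.16, 0.20 and 0.26 FPKM in the vector libraries. SLC30A10, an exporter known for carrying manganese, measured 0.33, 0.36 and 0.30 FPKM in the KDM4B-labelled libraries, against 0.10, 0.06 and 0.09 FPKM in the vector libraries. Both stood low but higher in all 3 KDM4B-labelled libraries than in any vector library. With no filter on low values both passed the test as deposited (log2 fold change 0.75 and 0.30, limma adjusted p = 2.35e-05 and 0.000152), against 11% of 19312 genes called higher in that fit. Scaled, also with no filter, they stood at 0.83 and 0.34 (adjusted p = 2.15e-05 and 9.32e-05). SLC30A2 did not exceed 0.04 FPKM in any library, and SLC30A8, the transporter of insulin granules in pancreatic beta cells, was above 0 only in KDM4B replicate 2, at 0.01 FPKM.

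**Figure D4:**
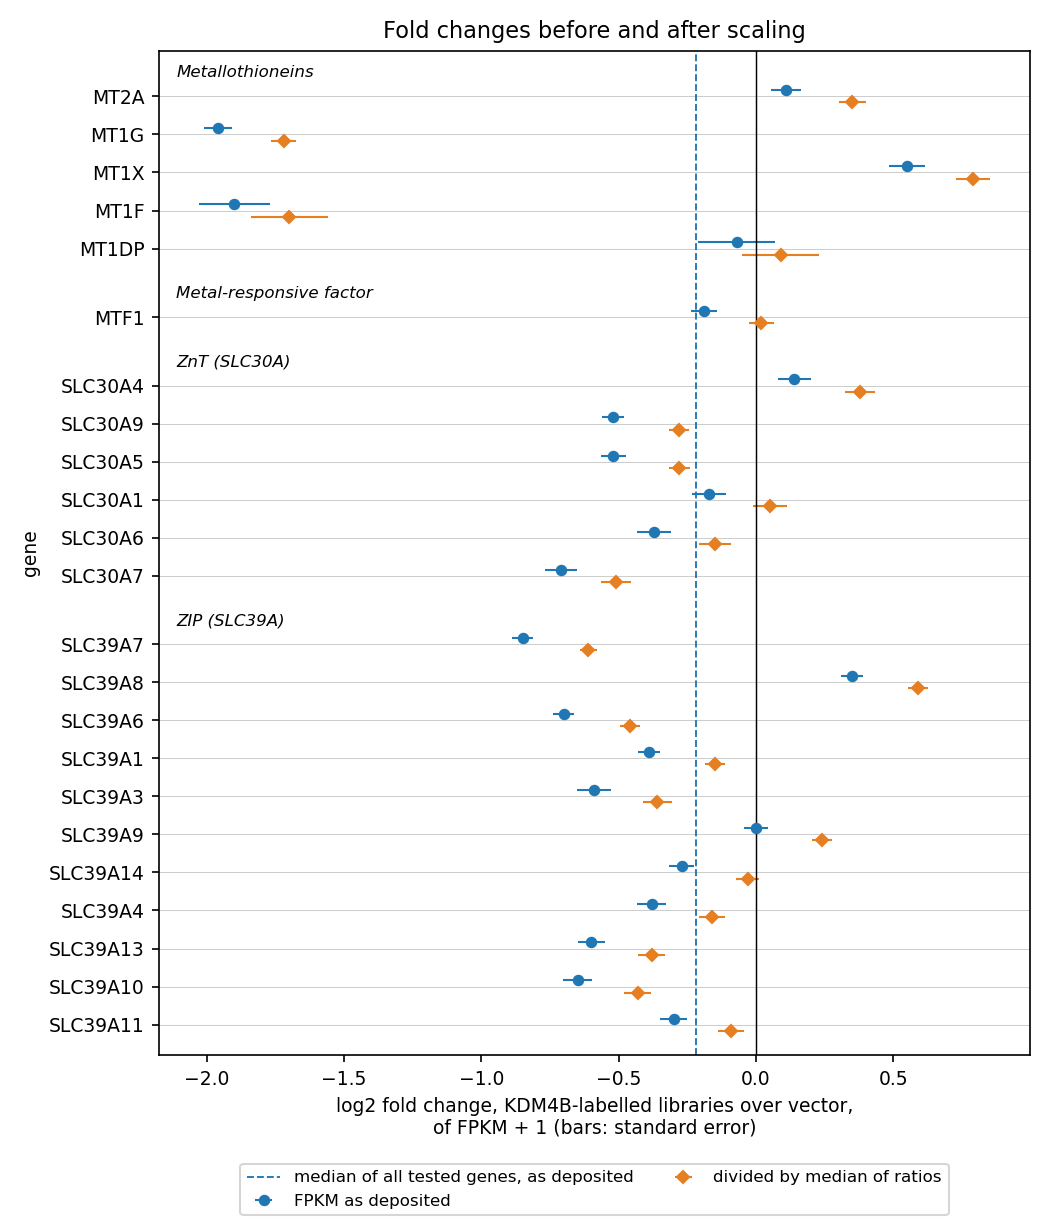
log2 fold change of FPKM + 1, KDM4B-labelled libraries over vector (x axis), of the 23 tested genes (rows), circles as deposited and diamonds after division by the median of ratios, with standard errors as bars. The dashed line marks the median of all tested genes as deposited, -0.22, and the diamonds lie to the right of the circles for every gene.

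Of the 13 ZIP transporters 11 were tested, and as deposited SLC39A8 rose, 9 fell and SLC39A9 did not pass. Scaled, SLC39A8 and SLC39A9 rose, 7 fell, and SLC39A11 and SLC39A14 did not pass. Over all tested genes 60.3% were called lower as deposited and 33.9% scaled. The summed ZIP level was 328 ± 7.27 FPKM in the KDM4B-labelled libraries and 442 ± 5.26 FPKM in the vector libraries (n = 3 each, ± SD). Scaled, the sums were 356 ± 0.607 FPKM in the KDM4B-labelled libraries and 406 ± 5.39 FPKM in the vector libraries, without overlap. The ratio of the ZIP sum to the ZnT sum was 2.59, 2.55 and 2.53 in the KDM4B-labelled libraries, against 3.01, 2.88 and 2.77 in the vector libraries, without overlap. Much of the difference between the ZIP sums lay in SLC39A7. Its mean was 68.3 FPKM in the KDM4B-labelled and 124 FPKM in the vector libraries, and scaled 74.3 and 114 FPKM. No ratio without SLC39A7 was computed, so this ratio does not show a shift shared by the ZIP genes.

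SLC39A7 (7922), which releases zinc from the endoplasmic reticulum into the cytosol, was the most abundant ZIP gene. It measured 67.0, 70.4 and 67.7 FPKM in the KDM4B-labelled libraries, against 128, 121 and 123 FPKM in the vector libraries. The groups lay far apart, and the log2 fold change of -0.85 (SE 0.037) as deposited and -0.61 (SE 0.031) scaled was the largest of the ZIP genes (limma, adjusted p = 3.78e-09 and 7.19e-08). In the KDM4B-labelled libraries its level was close to that of SLC39A8.

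SLC39A8 (64116), a plasma membrane transporter that also carries manganese, iron and cadmium, measured 64.2, 65.9 and 64.8 FPKM in the KDM4B-labelled libraries, against 48.4, 50.9 and 52.4 FPKM in the vector libraries. It was higher in each KDM4B-labelled library than in any vector library, with a log2 fold change of 0.35 (SE 0.039) as deposited and 0.59 (SE 0.035) scaled (limma, adjusted p = 7.79e-06 and 1.95e-07). Its most-read event had 1114, 1127 and 1049 reads in the KDM4B-labelled libraries, against 796, 867 and 773 reads in the vector libraries (edgeR, log2 fold change 0.65, adjusted p = 7.16e-12). SLC39A14, a transporter with a similar range of metals, measured 24.7, 25.1 and 24.4 FPKM in the KDM4B-labelled libraries, against 31.8, 28.9 and 29.4 FPKM in the vector libraries. It was called lower as deposited only (-0.27, adjusted p = 2e-04), and stood at -0.03 scaled (adjusted p = 0.521).

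SLC39A6 and SLC39A10, related plasma membrane proteins that can form a complex, both fell. SLC39A6 measured 42.9 FPKM in each of the 3 KDM4B-labelled libraries, against 68.4, 69.0 and 73.0 FPKM in the vector libraries (log2 fold change -0.70, and -0.46 scaled, limma adjusted p = 2.26e-08 and 1.49e-06). SLC39A10 measured 5.86, 6.17 and 6.29 FPKM in the KDM4B-labelled libraries, against 9.59, 10.4 and 10.5 FPKM in the vector libraries (log2 fold change -0.65, and -0.43 scaled, limma adjusted p = 5.49e-07 and 2.34e-05). Neither gene had overlapping groups, and the falls were of like size.

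SLC39A1, the uptake transporter most studied in prostate cells, measured 43.5, 43.5 and 42.3 FPKM in the KDM4B-labelled libraries, against 59.2, 55.4 and 56.2 FPKM in the vector libraries. It fell on both scales, by 0.39 as deposited and by 0.15 scaled on the log2 scale (limma, adjusted p = 3.14e-06 and 0.00395). SLC39A3, another uptake transporter of the plasma membrane, measured 24.2, 28.5 and 24.8 FPKM in the KDM4B-labelled libraries, against 41.2, 39.6 and 37.2 FPKM in the vector libraries (-0.59, and -0.36 scaled, limma adjusted p = 4.07e-06 and 0.000183). SLC39A4, which takes up dietary zinc in the intestine, measured 10.6, 11.9 and 10.5 FPKM in the KDM4B-labelled libraries, against 15.0, 14.2 and 14.6 FPKM in the vector libraries (-0.38, and -0.16 scaled, adjusted p = 4.59e-05 and 0.0119). These 3 uptake genes did not overlap between the groups on either scale. Among the 7 tested ZIP genes of the plasma membrane, 6 fell and 1 rose as deposited, and 5 fell and 1 rose scaled, beside the shares of all genes called lower of 60.3% and 33.9%.

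Of the ZIP proteins at internal membranes, SLC39A13 and SLC39A7 fell on both scales. SLC39A13 measured 6.65, 6.59 and 7.07 FPKM in the KDM4B-labelled libraries, against 10.3, 10.96 and 11.1 FPKM in the vector libraries (log2 fold change -0.60, and -0.38 scaled, limma adjusted p = 7.81e-07 and 6.74e-05). SLC39A11 measured 5.71, 5.91 and 6.17 FPKM in the KDM4B-labelled libraries, against 7.55, 7.48 and 7.51 FPKM in the vector libraries (-0.30, and -0.09 scaled, adjusted p = 0.000183 and 0.13). Its groups did not overlap, but the call was lost on the scale of all genes.

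SLC39A9, a Golgi zinc transporter also described as a membrane androgen receptor, measured 26.6, 29.1 and 28.1 FPKM in the KDM4B-labelled libraries, against 27.3, 28.1 and 28.3 FPKM in the vector libraries. The groups overlapped as deposited (0.00, limma adjusted p = 0.976), and SLC39A9 was called higher scaled (0.24, SE 0.036, adjusted p = 2e-04). SLC39A2 and SLC39A5 stayed at or under 0.17 FPKM in every library.

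Event reads were available for 19 of the tested genes. By them 5 were called higher (MT1X, MT2A, SLC39A8, SLC39A9 and SLC30A4) and 10 lower, against 22.8% and 23% of the 8553 genes tested in the same way. Those 5 are the genes called higher by scaled FPKM. For SLC30A6, SLC39A11, SLC39A14 and MTF1 the event reads did not pass the test. Over all settings tried, 14 of the 23 genes kept call and direction wherever they were tested: MT1X and SLC39A8 were higher, and MT1G, MT1F, SLC30A5, SLC30A7, SLC30A9 and 7 ZIP genes (SLC39A1, SLC39A3, SLC39A4, SLC39A6, SLC39A7, SLC39A10 and SLC39A13) were lower. That count was not made over all genes, so it does not set these genes apart from others. Called alike as deposited and scaled were 3 of the 23 genes higher and 13 lower, beside 1628 and 4114 of all 12148 tested genes.

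**Figure D5:**
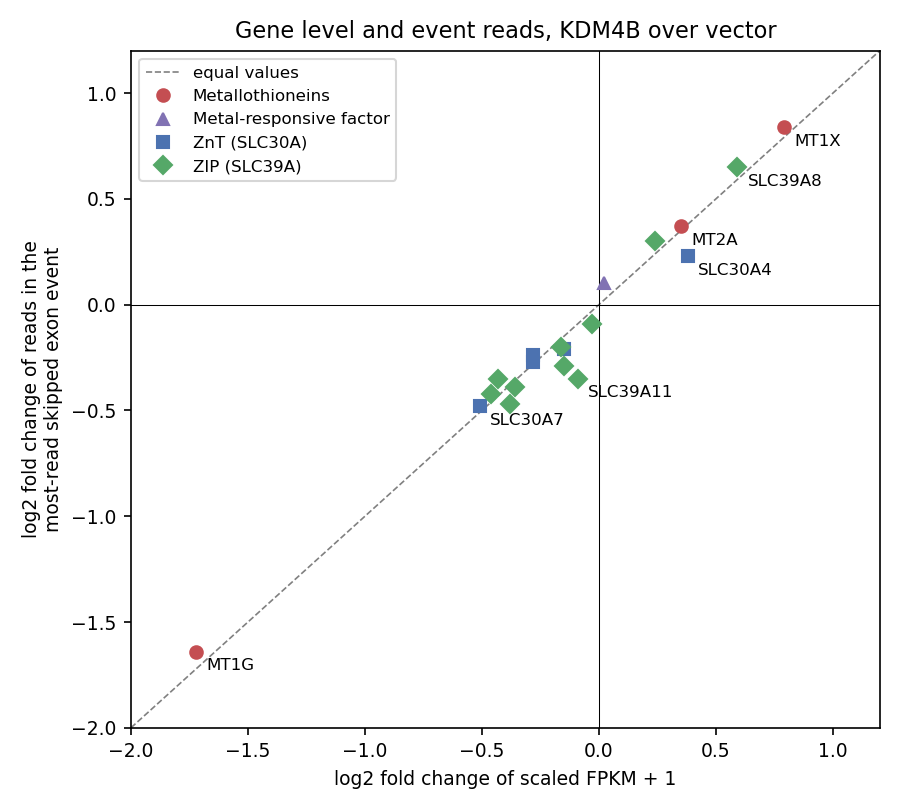
log2 fold change of scaled FPKM + 1 (x axis) and of reads in the most-read skipped exon event (y axis), KDM4B-labelled libraries over vector, for the 19 genes with such an event. Both come from the same libraries, and the dashed line marks equal values. MT1G lies at -1.72 and -1.64, MT1X at 0.79 and 0.84.

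The series was made to look for alternative splicing, and the splicing tables held 118 events of these genes, 83 of them skipped exons and 29 mutually exclusive exon pairs. Counts of both forms, or for retained introns and alternative 5′ splice sites the event count against the summed skipped exon reads of the gene, could be tested for 16 events in 9 genes. None of the 16 was called (edgeR quasi-likelihood test, 0 at an unadjusted p below 0.05, and 0 by DESeq2), against 4.69% of all 6103 events tested. By kind, the shares called over all genes were 5.5% of skipped exons, 1.63% of exclusive pairs, 4.38% of alternative 5′ splice sites and 15.8% of retained introns. An SLC30A9 exon (chromosome 4, 42072543 to 42072708) had 99.6% ± 0.255 inclusion reads in the KDM4B-labelled libraries and 99.6% ± 0.407 in the vector libraries (n = 3 each, ± SD; adjusted p = 0.996). A pair of SLC30A4 exons gave 61.2% ± 1.56 of reads to the exon listed first (chromosome 15, 45781039 to 45781240) in the KDM4B-labelled libraries and 58.8% ± 3.73 in the vector libraries (adjusted p = 0.82). For retained introns and alternative 5′ splice sites the event count joins both forms, so that test does not separate retained from spliced reads and says little about retention. Coordinates are as deposited, with starts counted from 1, and their build is uncertain: 9 of the 83 skipped exons lie inside their gene on GRCh38, the build named in the submitters' processing notes.

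Counts of other metal-handling genes stand beside 13.4% higher and 60.3% lower of all tested genes as deposited, and 34.1% and 33.9% scaled. Of 11 copper genes, 2 rose and 7 fell as deposited, and 5 rose and 1 fell scaled (median log2 fold change -0.14 and 0.08). The fall on both scales was that of SLC31A1, the copper importer, at 24.5, 24.4 and 25.0 FPKM in the KDM4B-labelled libraries against 61.7, 54.6 and 57.2 FPKM in the vector libraries (log2 fold change -1.20, and -0.96 scaled, limma adjusted p = 1.69e-09 and 5.73e-08). Of 14 tested iron genes, 3 rose and 10 fell as deposited, and 5 rose and 6 fell of the 13 tested after scaling. SLC25A37, which imports iron into mitochondria, fell to 27.7, 27.2 and 26.7 FPKM in the KDM4B-labelled libraries, against 50.65, 54.0 and 51.7 FPKM in the vector libraries (-0.91, and -0.68 scaled, limma adjusted p = 3.84e-09 and 1.42e-07).

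Other zinc-handling genes gave 0 rises and 3 falls of 6 tested as deposited, and 1 rise and 1 fall scaled. Stress genes that metals also induce rose in 4 and fell in 3 of 9 cases as deposited (6 and 3 scaled). GCLC, which catalyses the first step of glutathione synthesis, rose to 22.0, 23.9 and 22.3 FPKM in the KDM4B-labelled libraries, against 8.41, 8.53 and 8.70 FPKM in the vector libraries (log2 fold change 1.31, and 1.54 scaled, limma adjusted p = 7.44e-10 and 7.59e-10). NQO1 rose to 52.3, 55.1 and 52.4 FPKM in the KDM4B-labelled libraries, against 24.8, 23.7 and 24.1 FPKM in the vector libraries (1.11, and 1.34 scaled, limma adjusted p = 8.95e-10 and 7.59e-10). GCLM, the partner subunit of GCLC, fell to 8.39, 9.97 and 8.78 FPKM in the KDM4B-labelled libraries, against 16.7, 15.5 and 16.6 FPKM in the vector libraries (-0.78, and -0.56 scaled, adjusted p = 4.27e-07 and 7.56e-06). SLC7A11, which imports cystine for glutathione synthesis, fell the most of the list, at -1.63 and, scaled, -1.40 (adjusted p = 2.41e-09 and 7.9e-08).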

How the data were processed

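RNA-seq was available for 6 LNCaP libraries, grouped by title. The authors deposited a table of gene FPKM with 2 decimals, and whole-number read counts per splicing event and library, not normalized. Per the submitters' processing notes, which give no roles, HISAT, StringTie, Cufflinks, GRCh38 and hg38 were used. Not given in the sources used here is the splicing caller. RefSeq's table for GRCh38.p14 held all 34 IDs and served for names, gene order and a check of exon positions.

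A two-sided limma test with trended variance (version 3.58.1, R 4.3.3) was run on log2(FPKM + 1), where FPKM averaged at least 1 (12148 genes), with Benjamini-Hochberg adjustment over all of them and a threshold of 0.05. Scaled values are FPKM over a median-of-ratios factor, 0.904 to 0.942 in the KDM4B-labelled group and 1.09 in every vector library. FPKM carry no counts. Steps of 1 read in 16 to 23 low genes per library gave relative depths of 0.984 to 1.03. Only genes with values within 0.15 of whole multiples of their smallest value above 0 were used. Larger differences in depth could therefore not show, and these values do not establish equal depth. The most-read skipped exon event of each gene with at least 10 reads in every library was tested with edgeR 4.0.16 (TMM, glmQLFit and glmQLFTest). Splice forms were recovered where both exons of an exclusive pair were also listed as skipped exons. This assumes that the skipped exon counts minus the pair count give the skipping reads counted 2 times. Pairs for which this gave an odd or negative number of reads in any library were dropped. Forms were tested as an interaction of form and group, with library terms, and with DESeq2 1.42.0 as an alternative. The minimum was 10 reads per library, and 10 reads per form over all libraries. The design had assumed that both forms are in the tables. Skipped exon reads summed to 14212396 to 14787321 in the KDM4B-labelled libraries and 16451082 to 17021204 in the vector libraries, over events that share reads. Each test was checked on simulated data.

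Every gene matching the symbols was accounted for, tested genes with their values in each library. Of other lists, genes among the 4 with the lowest p were named. The genes and lists were chosen with earlier results of these data known. The fit was repeated with another pseudocount, filter, scaling, variance model or readout, with a replicate block, and without each library.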

Additional observations from a re-analysis of the deposited data

How the results depend on the processing

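Of the 23 tested genes, 3 were called higher and 17 lower. Scaling by the median of ratios gave 5 higher, as did taking out ribosomal RNA genes and bringing libraries to equal FPKM sums. The edgeR test on event reads gave 5 higher and 10 lower of 19 genes. Median-of-ratios scaling without a filter, chosen after seeing the data, gave 7 higher among all 34 genes. MTF1 and SLC30A1 changed sign and lost their calls: MTF1 stood at 0.02 (median of ratios, with or without the filter), 0.01 (ribosomal RNA genes taken out) and 0.10 (event reads), and SLC30A1 at 0.05 (median of ratios, with or without the filter) and 0.04 (ribosomal RNA genes taken out), on the log2 scale. The log2 ratio of summed metallothionein FPKM was -0.30 as deposited and -0.06 after scaling by the median of ratios. Leaving out each library in turn gave 2 to 4 genes higher, 16 to 17 lower and 18 to 21 called in all, 0 splice events, and a metallothionein ratio of -0.35 to -0.27. Replicate numbers 1 and 2 occur in both groups, but the labels do not say that they mark a shared batch, and the deviations of same-numbered libraries correlated at -0.024 and 0.13. With the replicate block, 4 genes were called higher, 18 lower and 22 in all, and 0 splice events; MT2A and MT1DP passed only there (adjusted p = 0.033 and 0.0223) among the fits on all libraries as deposited. A pseudocount of 0.1, a minimum of 5 FPKM and limma without trend left 1 call changed, that of SLC30A4 (0.14, adjusted p = 0.0802 without trend). With no filter the calls of SLC30A4 and SLC30A1 were lost (adjusted p = 0.118 and 0.071). The cause of these changes was not tested. Splice events stayed at 0 calls with a minimum of 20 reads, with DESeq2, and with no read filter. With no read filter 36 of the 118 events were tested: 20 skipped exons, 10 exclusive pairs, 3 alternative 5′ splice sites and 3 retained introns. Forms were recovered only for the skipped exons and exclusive pairs among them. For the events left untested, the tables and not depth set the limit.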
